A study of Mus musculus with 2 samples.

Results

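The amino acid, one-carbon and ATF4 genes are 38 genes that supply mESCs with amino acids, methyl groups and charged tRNAs, together with the transcription factor Atf4 and its stress-response partners. They were taken as a list of gene symbols and matched to the identifiers of the array. Of the 38, 37 had an identifier among the 30774 on the array, and Slc7a5 had none. A gene counted as detected where either array gave it a detection p-value below 0.01, and 27 of the 37 met this, among 9597 genes in all. The arrays compared B6 mESCs grown with LIF in serum medium, where LIF acts through Stat3, and the same cells given LIF and CHIR (CHIR99021), which blocks GSK3 and so turns on Wnt/β-catenin signaling, for 12 h. The labels give strain B6 and the inner cell mass as the source for both samples, and LIF was present in both. The paper's scheme of the array comparison names 46C ESCs instead, and which line was arrayed could not be settled here. There was 1 Illumina beadchip array per condition, so the differences have no replicate check and were not tested. The concentration of CHIR on the arrayed cells is not given in the sources used here.

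The labels were first set against marker genes. Of 8 embryonic stem cell markers, 6 were detected on both arrays, and Pou5f1 had a signal of 12346 without CHIR and 11309 with it. Sox2 and Tdgf1 were not detected. Sox2 had signals of 441.2 in LIF and 400.2 in LIF plus CHIR, with detection p-values of 0.0503 and 0.276. Tdgf1 was dim, with 26.6 and 14.6. None of 8 embryonic fibroblast markers had a detection p-value under 0.01. Of these, Thy1 nevertheless had signals of 222.3 in LIF and 225.3 in LIF plus CHIR, with p-values of 0.354 and 0.302, and the other seven had signals under those of the dimmest detected identifiers with 1 probe. Of 7 primitive endoderm markers only Sox7 was, with signals of 45.9 in LIF and 59.0 in LIF plus CHIR. Axin2, a feedback target of β-catenin, had a signal of 314.1 in LIF and 1178 in LIF plus CHIR, a log2 fold change of 1.91. It was 1 of 6 Wnt/β-catenin target genes listed as a treatment check. Of these, 4 were detected and all 4 were at least 1.5-fold higher (Axin2, Sp5, T and Cdx1), beside 4.12% of all detected genes. Sp5 and T were detected only in LIF plus CHIR. Nkd1 (12.9 and 10.9) and Lef1 (21.4 and 8.84) were not detected and did not have higher signals with CHIR. Signals were deposited after background subtraction and were distributed alike on both arrays, with a 95th percentile of 3093 in LIF and 3077 in LIF plus CHIR. Precision is limited by the single array behind each value.

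When amino acids run short, uncharged tRNA activates the kinase Gcn2, general translation slows, and translation of Atf4 mRNA increases. Atf4 protein then binds C/EBP-ATF response elements at genes for amino acid synthesis, amino acid uptake and tRNA charging. In one-carbon metabolism, serine and glycine pass single-carbon units to folate for nucleotide synthesis and, through methionine, for methylation. mESCs are known for an unusual reliance on threonine, which Tdh and Gldc break down to feed the folate pool.

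Most of these genes had nearly the same signal with and without CHIR. Of the 27 detected genes, 3 were brighter with CHIR by 1.5-fold or more (Asns, Bhmt2 and Cars), 1 was dimmer by as much (Slc38a2), and 23 lay between these limits. Among all 9597 detected genes, 4.12% passed the limit upwards and 4.03% downwards. Bhmt2 was detected only in LIF plus CHIR, so it entered the count through the array on which it was brighter. With detection required on both arrays, 2 of 26 members were higher (Asns and Cars) and 1 was lower (Slc38a2). The shares of all 8563 genes were then 2.37% and 2.65%. The median log2 fold change of the 27 genes was 0.08, beside 0.00 over all detected genes. For 16 of the 27 the log2 fold change was smaller than 0.2 in size. The share of identifiers past 1.5-fold in either direction depended on brightness. It was 20.7% for identifiers whose brighter signal did not reach 100, 7.34% from 100 to under 1000, and 2.20% at 1000 or more. Of the members, 1 lay in the dim range (Cars), 10 in the middle range, of which Bhmt2 passed, and 16 in the bright range, of which Asns and Slc38a2 passed.

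**Figure D1:**
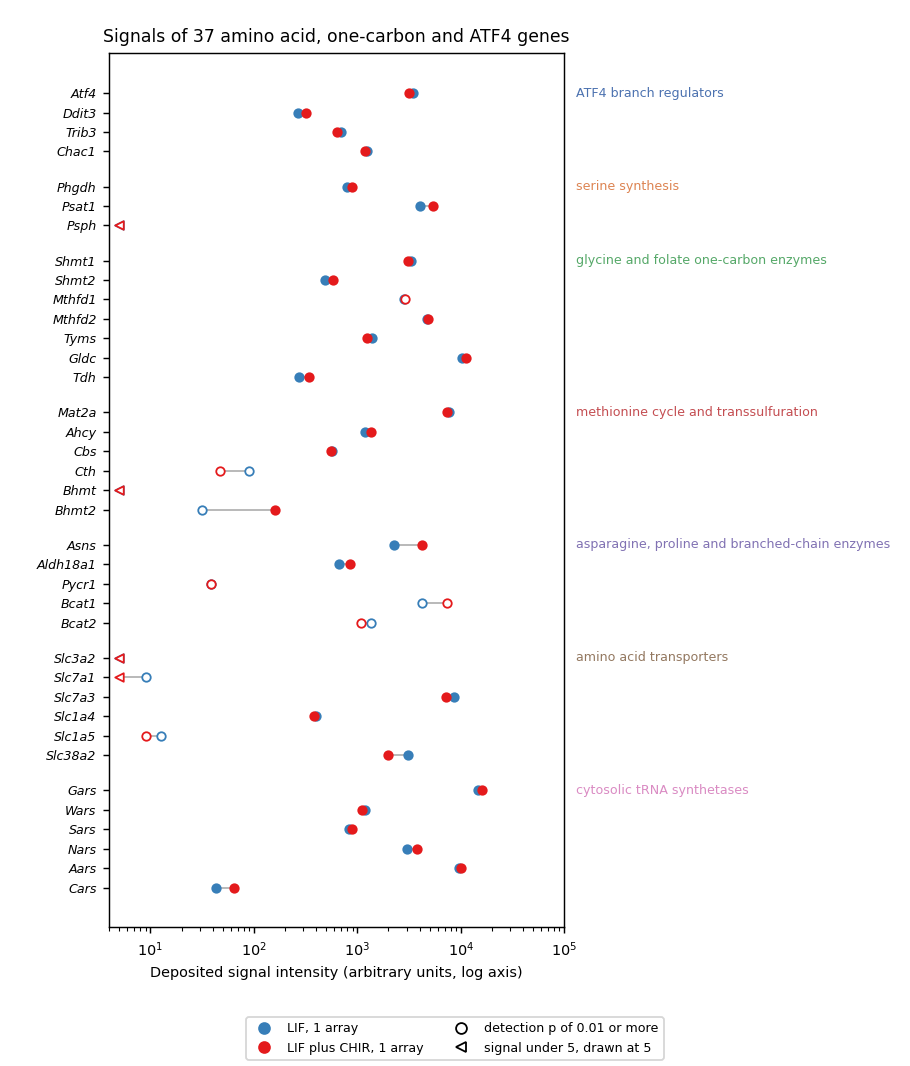
Signal intensity of the 37 genes with an identifier, by role, on the LIF array (blue) and the LIF plus CHIR array (red), on a log axis. Each point is 1 array with no error bar, open points have a detection p-value of 0.01 or more, and triangles mark signals under 5. Asns and Bhmt2 lay to the right in LIF plus CHIR, Slc38a2 lay to the left, and the open pair of Bcat1 was also separated.

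Asns encodes asparagine synthetase, which makes asparagine from aspartate and is a classic target of Atf4. The LIF array gave it 2289 and the LIF plus CHIR array 4223, 1.84-fold higher (log2 fold change 0.88). Its detection p-values were 0.00871 without CHIR and 0.000216 with it. Only 13 of the 3269 detected identifiers with a signal of 1000 or more had a larger ratio. The log2 fold change stayed between 0.88 and 1.15 under every alternative run, although only changes of normalization or background correction could move it. The p-values of Asns have the form taken here for several probes combined into 1 signal, and single probes could not be compared.

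The genes that make up the Atf4 branch itself did not accompany Asns past the limit. Atf4 had a signal of 3419 in LIF and 3185 in LIF plus CHIR (log2 fold change -0.10). Trib3, a pseudokinase that Atf4 induces and that restrains it in turn, had signals of 688.9 and 635.7 (-0.12). Chac1 degrades glutathione and is among the genes most responsive to Atf4 in many cells. Its signals were 1244 in LIF and 1196 in LIF plus CHIR (-0.06). Ddit3, which encodes the transcription factor CHOP, had 266.7 and 316.1 (0.25). Thus 3 of the 4 were slightly dimmer in LIF plus CHIR and 1 slightly brighter, all within 1.5-fold. Most detected genes lay within it too, with 4.12% past it upwards and 4.03% downwards. Atf4 is controlled largely at translation, so its mRNA level does not report the amount of the protein.

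The sequence upstream of these genes was examined for the core of the C/EBP-ATF response element, TGATGNAA or its reverse complement TTNCATCA, in the 250 bases before the annotated start of transcription. RefSeq promoter sequences (GRCm38.p6) were at hand for 30 of the 38 genes, and 5 of these (16.7%) held the motif, beside 3.91% of 27025 genes in the table. Several members are on the list because they are known Atf4 targets, so this share is a description. The 5 were Asns, Chac1, Gars, Aars and Pycr1. The sequences of the 4 detected genes are given below from 5′ to 3′ on the strand of the gene, with the motif in capitals, because they share this element and differed in signal change. They lie at chr6:7693210-7693459 on the minus strand (Asns), chr2:119350992-119351241 on the plus strand (Chac1), chr6:55037751-55038000 on the plus strand (Gars) and chr8:111033592-111033841 on the plus strand (Aars).
Asns: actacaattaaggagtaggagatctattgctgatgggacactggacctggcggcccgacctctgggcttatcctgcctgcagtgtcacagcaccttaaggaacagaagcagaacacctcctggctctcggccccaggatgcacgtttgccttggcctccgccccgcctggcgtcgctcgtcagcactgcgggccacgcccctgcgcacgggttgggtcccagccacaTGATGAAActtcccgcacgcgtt
Chac1: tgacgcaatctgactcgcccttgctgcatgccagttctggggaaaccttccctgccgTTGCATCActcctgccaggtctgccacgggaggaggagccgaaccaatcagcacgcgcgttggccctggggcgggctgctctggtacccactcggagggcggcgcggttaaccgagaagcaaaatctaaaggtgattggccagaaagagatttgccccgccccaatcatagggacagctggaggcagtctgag
Gars: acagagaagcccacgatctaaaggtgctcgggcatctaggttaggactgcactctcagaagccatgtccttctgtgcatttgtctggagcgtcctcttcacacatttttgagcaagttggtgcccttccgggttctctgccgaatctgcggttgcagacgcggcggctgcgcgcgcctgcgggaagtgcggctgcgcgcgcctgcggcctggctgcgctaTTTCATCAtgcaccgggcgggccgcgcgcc
Aars: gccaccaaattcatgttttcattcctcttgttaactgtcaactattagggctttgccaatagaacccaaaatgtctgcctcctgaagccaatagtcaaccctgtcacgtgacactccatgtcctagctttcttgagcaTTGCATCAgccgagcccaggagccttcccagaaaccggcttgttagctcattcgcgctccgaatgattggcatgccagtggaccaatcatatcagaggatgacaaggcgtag

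The motif began 23 bases before the start in Asns, 193 in Chac1, 30 in Gars and 112 in Aars. Asns had a log2 fold change of 0.88, whereas the other three had -0.06 (Chac1), 0.14 (Gars) and 0.05 (Aars). Pycr1 held the motif 103 bases before its start and was not detected on either array. Bhmt2, Slc38a2 and Bcat1 had no match in these 250 bases, which says nothing of elements elsewhere in the genes.

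Serine is made from a glycolytic intermediate by Phgdh, Psat1 and Psph in turn. Phgdh, the first enzyme, had a signal of 789.9 in LIF and 886.9 in LIF plus CHIR (log2 fold change 0.17). A separate identifier described as similar to Phgdh, LOC666036, had 135.6 in LIF and 131.0 in LIF plus CHIR, a log2 ratio of -0.05. Another, LOC224870, was not detected. Whether their probes read the same mRNA as Phgdh was not tested. Psat1, the aminotransferase of the second step, had 4010 in LIF and 5447 with CHIR, 1.36-fold higher (0.44). It did not reach 1.5-fold, although only 71 of the 3269 bright identifiers had a larger ratio. Psph, the phosphatase that completes the pathway, was not detected, with signals below 0 on both arrays. A probe at background does not show that the mRNA is absent.

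In glycine and folate metabolism 6 of 7 genes were detected and none passed 1.5-fold. Over all detected genes 4.12% passed upwards and 4.03% downwards, so a list of 6 genes would often hold none. Tdh, the threonine dehydrogenase of mESCs, had signals of 272.0 in LIF and 338.2 in LIF plus CHIR (log2 fold change 0.31). Gldc, the decarboxylase of the glycine cleavage system, had 10261 and 11303 (0.14). Both enzymes of threonine and glycine breakdown were thus slightly brighter in LIF plus CHIR. The mitochondrial serine hydroxymethyltransferase Shmt2 had 485.2 and 584.2 (0.27), and its cytosolic counterpart Shmt1 had 3338 and 3107 (-0.10). Mthfd2, the mitochondrial folate enzyme that is high in proliferating cells, had 4697 and 4817 (0.04). Tyms, which uses folate to make thymidylate, had 1380 and 1251 (-0.14). Mthfd1, the cytosolic trifunctional folate enzyme, had signals of 2822 and 2861 but combined detection p-values of 0.0913 and 0.152, and so fell outside the detected set.

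In the methionine cycle and cysteine synthesis, Mat2a, Ahcy and Cbs also lay within 1.5-fold, as most detected genes did. Mat2a, which makes S-adenosylmethionine, had 7743 in LIF and 7351 in LIF plus CHIR (log2 fold change -0.07). Ahcy, which removes S-adenosylhomocysteine after methylation, had 1183 and 1344 (0.18), and Cbs, which draws homocysteine into cysteine synthesis, had 573.5 and 558.3 (-0.04). Cth, the next enzyme of that route, was not detected, with signals of 88.9 and 47.1 and combined p-values of 0.229 and 0.307.

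Bhmt2 was the exception in this group and had the largest ratio among the detected members. Bhmt2 and its neighbour Bhmt encode methyltransferases that return homocysteine to methionine, Bhmt with betaine and Bhmt2 with S-methylmethionine, and both genes lie in band 13qC3 by the annotation of the array. The signal of Bhmt2 was 31.4 in LIF, with a detection p-value of 0.0513, and 161.8 in LIF plus CHIR, above all negative controls. It was thus at least 3.11-fold higher with CHIR, with 51.9, the dimmest signal that passed detection on the LIF array among identifiers with 1 probe, standing for the undetected side. The ratio of the signals themselves was 5.15. Under normexp background correction the log2 fold change was 0.11 when fitted on all identifiers and 1.89 when fitted on identifiers with 1 probe. Bhmt was not detected on either array, with signals of -9.47 in LIF and -13.3 in LIF plus CHIR.

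**Figure D2:**
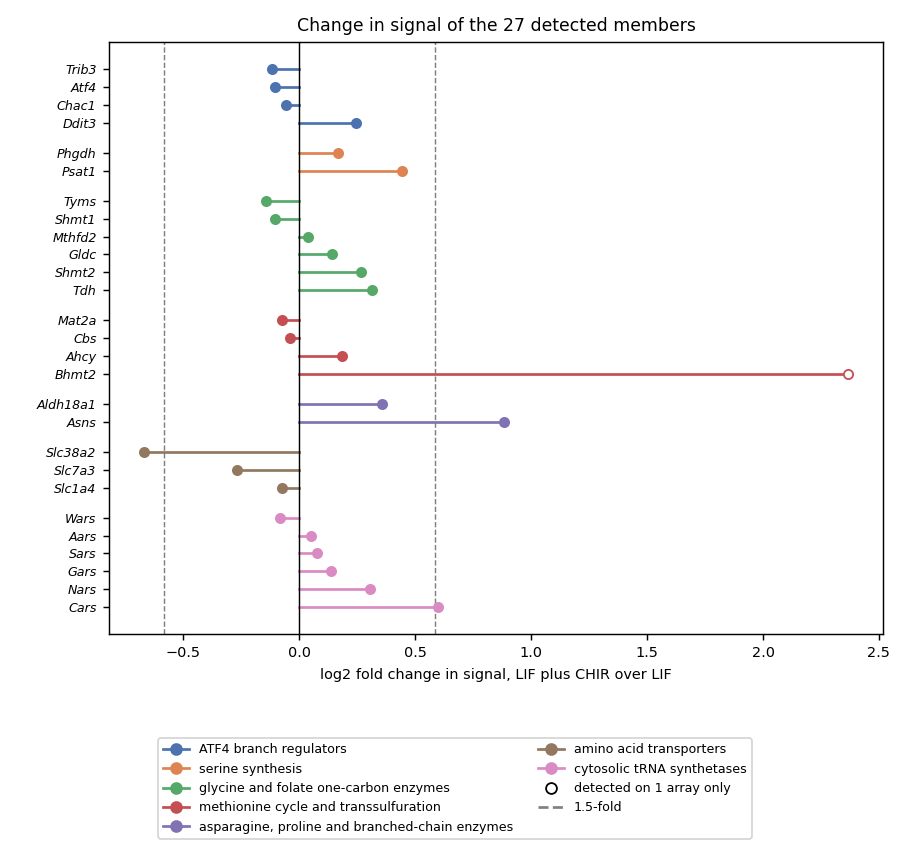
log2 fold change in signal, LIF plus CHIR over LIF, of the 27 detected genes, coloured by role, with dashed lines at 1.5-fold. Each point is the ratio of 1 array to 1 array and has no error bar. The open point of Bhmt2 marks detection on 1 array only, and its value is the ratio of the measured signals.

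Among the enzymes of proline and branched-chain amino acids, Aldh18a1, which starts proline synthesis from glutamate, had signals of 663.6 in LIF and 850.9 in LIF plus CHIR (log2 fold change 0.36). Pycr1, which finishes it, was not detected, with 38.5 and 38.7. Bcat1 and Bcat2 are the cytosolic and mitochondrial aminotransferases of leucine, isoleucine and valine. Bcat1 had a bright signal of 4248 in LIF and 7342 in LIF plus CHIR, a ratio of 1.73 (log2 0.79). Its combined detection p-values of 0.493 and 0.240 nevertheless placed it outside the detected set. Bcat2 had 1344 and 1089, with combined p-values of 0.0247 and 0.0331, a log2 ratio of -0.30.

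Such a pairing of a bright signal with a high p-value was seen for 278 identifiers with a signal of 1000 or more. The files do not give the number of probes. These p-values are called combined because they are not multiples of 1 over 936, the step that most identifiers show, and were taken to come from several probes for that reason alone. When detection was judged by signal instead, a rule chosen after the data were seen, 31 members entered. Then 3 were at least 1.5-fold higher (Asns, Bcat1 and Bhmt2) and 2 at least 1.5-fold lower (Slc38a2 and Cth), beside 2.55% and 2.88% of 10781 genes. A separate identifier that the annotation describes as similar to Bcat1, LOC100048832, was above all negative controls on both arrays. It had signals of 194.8 in LIF and 346.8 in LIF plus CHIR, a ratio of 1.78. Whether the probes of this identifier and of Bcat1 read the same mRNA was not tested.

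Slc38a2 was the only detected member at least 1.5-fold dimmer in LIF plus CHIR. It encodes SNAT2, a sodium-coupled carrier of neutral amino acids that is induced by amino acid shortage. It measured 3124 without CHIR and 1967 with it, 1.59-fold lower (log2 fold change -0.67). Of the 3269 bright identifiers, 21 had a larger decrease. The log2 fold change lay between -0.90 and -0.66 under every alternative run, although only changes of normalization or background correction could move it. As for Asns, the p-values of Slc38a2 have the form taken here for several probes, and single probes could not be compared.

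All 3 detected transporters had a ratio below 1, with a median log2 fold change of -0.27. Of 10 detected amino acid transporters outside the members, 5 had a ratio below 1 and 5 above. Slc7a3, a carrier of arginine and lysine, had signals of 8666 in LIF and 7190 in LIF plus CHIR (-0.27). Slc1a4, a carrier of alanine, serine and cysteine, had 399.2 and 379.2 (-0.07). Slc7a1, the related cationic carrier, the glutamine carrier Slc1a5 and Slc3a2, the heavy chain that carries Slc7a5 to the membrane, were at background on both arrays. Slc7a5, the light chain for leucine uptake, has no identifier of its own. An identifier described as similar to it, LOC100047619, had 13192 in LIF and 11262 in LIF plus CHIR, a log2 ratio of -0.23.

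Among 6 cytosolic tRNA synthetases, which charge tRNAs with their amino acids, 5 had a ratio above 1 and only Cars passed 1.5-fold. Cars, for cysteine, was dim, with 42.9 in LIF and 64.9 in LIF plus CHIR (log2 fold change 0.60), in the brightness range where 20.7% of identifiers passed. Raising the minimum signal to that of identifiers with 1 probe gave 0.32, which is under the limit. Cars itself was detected on both arrays, and its p-values have the form taken here for several probes. That minimum therefore comes from identifiers of the other kind. Nars, for asparagine, had 3051 and 3768 (0.30), and Gars, for glycine, had 14625 and 16072 (0.14). The signals of Aars, for alanine, were 9694 and 10039 (0.05), and those of Sars, for serine, were 836.2 and 881.3 (0.08). Wars, for tryptophan, had 1177 and 1113 (-0.08).

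**Figure D3:**
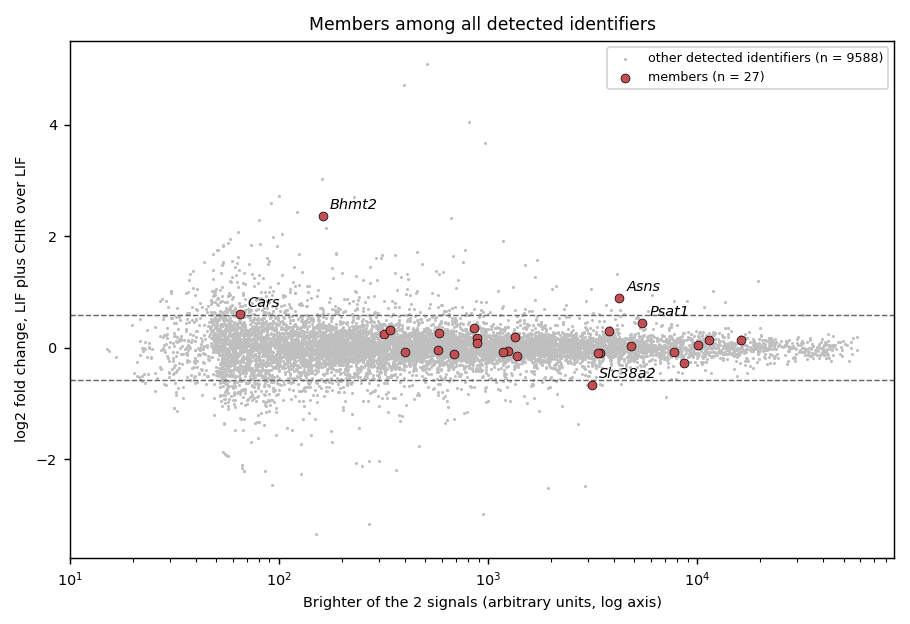
log2 fold change in signal, LIF plus CHIR over LIF, against the brighter of the 2 signals on a log axis, for all 9615 detected identifiers (gray) and the 27 members (red), with dashed lines at 1.5-fold. Ratios spread more widely at low signal, where Cars lies, whereas Asns and Slc38a2 lie outside the bulk of the bright identifiers.

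The surrounding pathway genes were taken from 7 lists of 141 genes, of which 79 were detected. Of these, 3 had a signal ratio of 1.5 or more (Oat, Nars2 and Slc36a1), although Nars2 was detected only in LIF plus CHIR, and 1 was at least 1.5-fold lower (Stc2), again beside 4.12% and 4.03% of all detected genes. The median log2 fold change was 0.00. The ornithine aminotransferase gene Oat, which links ornithine to proline and glutamate, had signals of 2172 in LIF and 3668 in LIF plus CHIR (0.76). Ass1, the argininosuccinate synthase of arginine synthesis, had 3708 and 5040 (0.44), which is under the limit. Both were bright. Nars2, the mitochondrial asparaginyl-tRNA synthetase, was dim, with 35.4 and 58.6. Against the dimmest detected 1-probe signal in LIF it was at least 1.13-fold higher, which does not reach the limit. Slc36a1, a proton-coupled carrier of small amino acids, had 71.6 and 108.6 (0.60).

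Of 13 detected genes among the other stress-response and Atf4-branch genes, none was at least 1.5-fold higher, beside 4.12% of all detected genes. Stc2, which encodes a secreted glycoprotein induced by cell stress, had signals of 379.7 in LIF and 246.8 in LIF plus CHIR (log2 fold change -0.62). Xbp1, a transcription factor of the unfolded protein response, had 7883 and 5368 (-0.55), just short of the limit. Sesn2 and Ddit4 had log2 fold changes of -0.09 and -0.17, whereas Atf5 had 0.30 and Nupr1 had 0.40. Ppp1r15a, the phosphatase subunit that reverses the block of translation, had 0.06 under its older symbol Myd116. The median of these 13 genes was -0.09.

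None of 9 detected other cytosolic tRNA synthetases passed the limit. Of these 9, 6 had a ratio below 1, with a median log2 fold change of -0.05 and values from -0.47 (Farsa) to 0.05 (Rars). None of 10 folate and glycine cleavage genes and none of 11 methionine and polyamine genes passed. With 4.12% of all detected genes past the limit upwards and 4.03% downwards, lists of these sizes would often hold none. The median of 12 mitochondrial tRNA synthetases was 0.02. For 14 other amino acid enzymes it was 0.12, and for 10 other amino acid transporters it was -0.05.

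**Figure D4:**
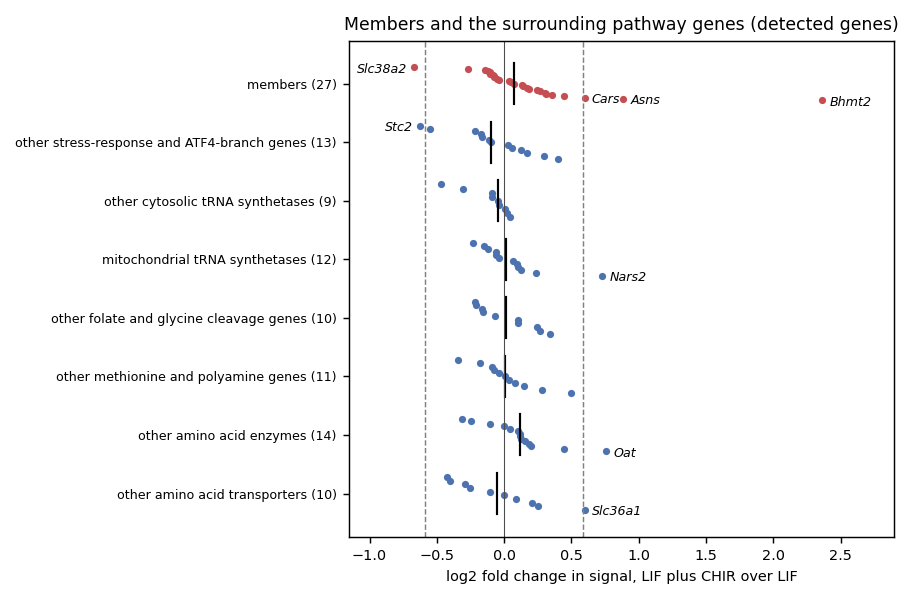
log2 fold change in signal, LIF plus CHIR over LIF, of the detected members and of the detected genes in 7 surrounding lists, with the number of genes in brackets. Each point is a gene, black bars are medians and dashed lines mark 1.5-fold. Genes past 1.5-fold are named, and the medians lie between -0.09 and 0.12.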

How the data were processed

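Illumina mouse beadchips, 1 array per condition, were used to measure RNA of mESCs cultured in LIF with or without CHIR. Samples were grouped by their titles. The authors deposited signal intensity per identifier, background-subtracted, and a detection p-value against negative control beads. Scanner software and normalization method are not given in the sources used here. Both deposited tables were read, and 0 shared values differed.

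Signal ratios (LIF plus CHIR over LIF) were calculated in Python 3.11.15 using numpy 2.4.6 and pandas 2.3.3, and plotted using matplotlib 3.10.9. Identifiers were kept where either array gave a detection p-value below 0.01, and lower signals were raised to the lowest detected one (15.1 in LIF, 14.8 in LIF plus CHIR). Identifiers whose p-values were multiples of 1 over 936 were treated as having 1 probe (23264) and the others, 18 members among them, as having several. A p-value of 0 counted as such a multiple, although it does not show the number of probes. Atf4, Psat1 and Nars, among others, had 0 on both arrays, so their class is uncertain and they may also have several probes. With 1 array per condition no test was possible. The calculation was tested on simulated data in which every identifier counted as detected and only brighter ones were changed. That run did not check the detection rule or changes in dim signals. Members, lists and motif were chosen with earlier results of these data known. Named genes were all members, wider-list genes past 1.5-fold and the marker genes; other wider-list genes were named after their values were seen. Alternatives used limma 3.58.1 in R 4.3.3 for normexp (offset 16). Listed genes were matched by Entrez number through RefSeq (GRCm38.p6) or by symbol.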

Additional observations from a re-analysis of the deposited data

How the results depend on the processing

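No paired analysis was possible because there was a single array for each culture condition. With the deposited signals 3 members were at least 1.5-fold higher and 1 lower. Normexp correction fitted on all identifiers, with a background SD of 588.4 in LIF and 585.8 in LIF plus CHIR, left 1 higher (Asns), and Bhmt2 and Cars had log2 fold changes of 0.11 and 0.02 there. The same correction shrank smaller differences, to 0.06 for Tdh, 0.05 for Ddit3, 0.10 for Shmt2 and 0.21 for Aldh18a1. A limit of 2-fold left 1 higher (Bhmt2) and 0 lower. Detection on both arrays left 2 higher (Asns and Cars) and 1 lower of 26 members, since Bhmt2 was detected only in LIF plus CHIR. Detection by signal, added after seeing the data, gave 2 lower. Fitted on identifiers with 1 probe, normexp had a background SD of 15.4 in LIF and 15.3 in LIF plus CHIR. That fit left 2 higher (Asns and Bhmt2), with log2 fold changes of 1.89 for Bhmt2 and 0.46 for Cars. With the minimum signal of identifiers with 1 probe, Bhmt2 had 1.64 and Cars had 0.32. Over all detected genes 395 were higher and 387 lower by 1.5-fold, against 55 and 49 under normexp fitted on all identifiers, 682 and 684 with detection p-values under 0.05, 203 and 227 with detection on both arrays, 129 and 85 at 2-fold, and 247 and 273 with the 1-probe minimum. The members' median stayed between 0.03 and 0.08 under all alternatives run. Of 242 values for 27 members, 235 kept their side of the limit with a ratio (not log2) that moved by less than 1.5 times. Of the members past the limit, 0 changed direction. Every alternative reused the same 2 arrays. Changes of the detection rule or minimum signal alone could not move the ratio of a bright member. Much of this count was therefore fixed in advance and does not measure reliability. Low signals are limited most, since the dim range had the largest share past 1.5-fold.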
